A study of Mus musculus with 8 samples.

Results

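The small leucine-rich proteoglycans and versican were followed as 10 genes among the 35275 rows of the deposited table: Dcn, Bgn, Aspn, Lum, Fmod, Prelp, Omd, Ogn, Podn and Vcan. They were chosen by gene family with earlier results of these data known, and do not make up the whole family. Another 9 small leucine-rich proteoglycan genes are described apart. Rows were taken by Ensembl identifier, where it carries one of these symbols in GENCODE M21, and all 10 were found. RNA of mouse heart ventricle was sequenced in 8 libraries, 4 of genotype WT and 4 of genotype RBX2iCKO, all from tamoxifen-treated animals. In RBX2iCKO, Rbx2 was deleted by Mer-Cre-Mer, a Cre recombinase switched on by tamoxifen and driven by the cardiomyocyte promoter αMHC. Rbx2, listed as Rnf7, encodes a RING subunit of cullin 5 ubiquitin ligases. The labels give neither age nor time after tamoxifen, and do not say whether WT animals carry the transgene. They also do not say that libraries come from separate animals, so the p-values cover only library-to-library spread, which may be technical.

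Proteoglycans are secreted core proteins that carry long sulfated sugar chains. The small leucine-rich proteoglycans wrap a curved repeat domain around collagen fibrils, set fibril diameter and spacing, and bind growth factors such as TGF-beta. Versican is a large proteoglycan of another family, the hyalectans, which holds chondroitin sulfate chains and ties hyaluronan into a hydrated matrix, as in the developing heart valves. In the adult heart these genes are known mainly from fibroblasts and valve cells, cells in which αMHC is not known to be active.

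The deleted gene and the library facts stood as follows. Rnf7 was at 35.3 to 40.7 FPKM in WT and at 6.86 to 7.53 FPKM in RBX2iCKO (FPKM counts fragments relative to gene length and to the counted fragments of the library). Esr1 was at 0.203 to 2.06 FPKM in WT and at 266 to 391 FPKM in RBX2iCKO. Mer-Cre-Mer carries estrogen receptor sequence, so effects of Rbx2 loss and of the transgene with tamoxifen cannot be told apart here. The ventricular markers Myl2 and Myh6 averaged 6468 and 5310 FPKM in WT, while the cell type label reads cardiomyocytes and the protocol describes minced ventricle. Libraries held 18513924 to 23043686 counted fragments, and mitochondrial-encoded transcripts took 22.5% to 25.0% of them in WT against 14.6% to 18.9% in RBX2iCKO. FPKM is a share of the library, and the median of all 13050 tested genes was higher in RBX2iCKO by 0.21 on the log2 scale. The calls of the members and the counts of the lists are therefore also given after median-of-ratios scaling, called scaled, which brings that median to 0.02. Fold values of single genes are ratios of mean FPKM as deposited.

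All 10 proteoglycan genes rose in the RBX2iCKO ventricles, by 1.46-fold to 6.42-fold in mean FPKM as deposited. The background was 33.5% of tested genes called higher (limma on log2(FPKM + 1), Benjamini-Hochberg adjusted p under 0.05) and 3.52% called lower. After scaling 6 of the 10 were called higher, Dcn, Bgn, Aspn, Fmod, Omd and Vcan, against a background of 8.78% higher and 10.9% lower, and 0 were lower. The median log2 difference of the 10 was 1.06 as deposited and 0.81 scaled. In 9 of the 10 every RBX2iCKO library lay above every WT library, which 34% of tested genes did, and scaled this held for 6 of the 10 against 11.6%. As deposited, the mean FPKM ratio reached 2 for 7 of the 10, and for 6.87% of tested genes. That count was not repeated after scaling, which lowered the log2 differences of Dcn, Lum and Vcan. They went from 1.11, 1.01 and 0.76 to 0.86, 0.76 and 0.58, so their place at 2-fold rests on the deposited scale. Without RBX2iCKO replicate 1 the ratios of Dcn, Lum and Vcan fell under 2, to 1.93, 1.82 and 1.80. Every one of the 10 had a WT mean above the filter of 0.5 FPKM, so none entered the test through the RBX2iCKO group alone.

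**Figure D1:**
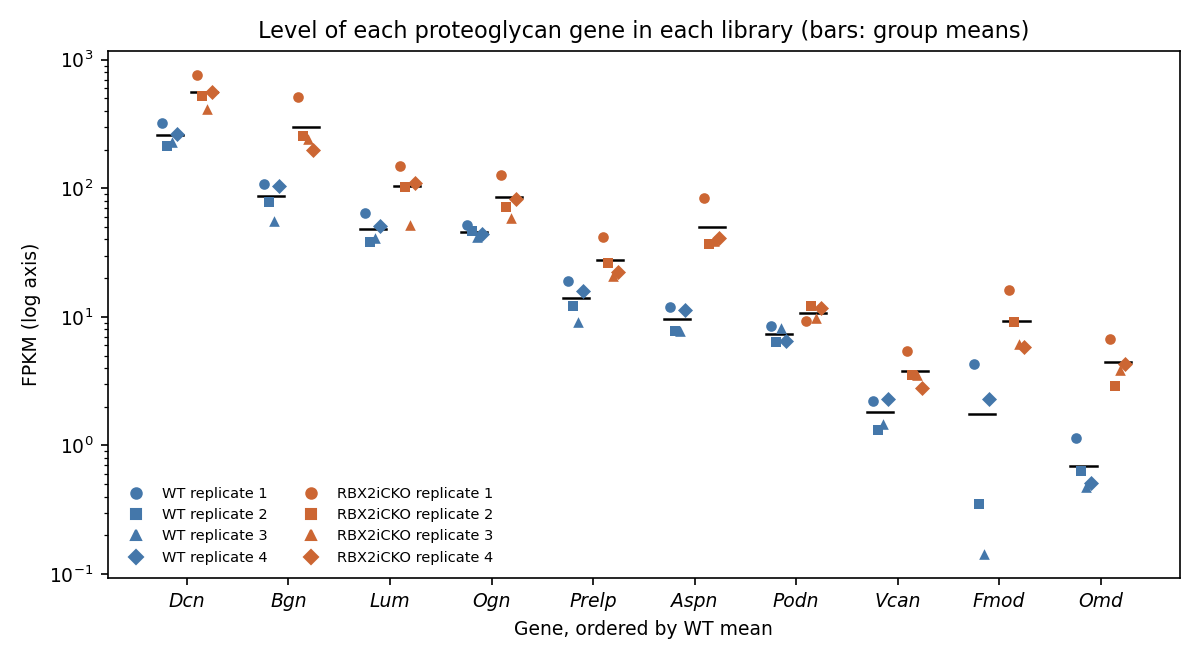
FPKM (log axis) of each of the 10 genes in each library, WT in blue and RBX2iCKO in orange, with 1 symbol shape per replicate number and bars at the group means. RBX2iCKO replicate 1 is the highest point for 9 of the 10 genes, and WT libraries of Fmod spread from 0.143 to 4.29 FPKM.

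The class I genes encode decorin, biglycan and asporin, the closest relatives of one another. Decorin carries a single chondroitin or dermatan sulfate chain, binds collagen type I and sequesters TGF-beta. Dcn (ENSMUSG00000019929, chromosome 10, 97479609 to 97518143, plus strand of mm10) was at 325, 215, 227 and 265.2 FPKM in WT replicates 1 to 4 and at 765, 519, 415 and 563 FPKM in RBX2iCKO replicates 1 to 4. All 4 knockouts lay above all 4 controls, the lowest being replicate 3. The means were 258 FPKM ± 49.3 and 565 FPKM ± 147 (SD, n = 4 each), a 2.19-fold rise (log2 difference 1.11, SE 0.19, limma adjusted p = 0.00367; scaled 0.86, adjusted p = 0.0113).

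Biglycan, a pair-chained relative of decorin that also signals through Toll-like receptors when released, rose more. Bgn (ENSMUSG00000031375, chromosome X, 73483602 to 73495933, plus strand) was at 109, 78.5, 55.4 and 103 FPKM in WT and at 510, 254, 242 and 199 FPKM in RBX2iCKO. The groups did not overlap, and RBX2iCKO replicate 1 was far above the other knockouts. The ratio of means was 3.48 (log2 difference 1.74, SE 0.30, limma adjusted p = 0.004; scaled 1.48, adjusted p = 0.00902), and 2.68 without that library.

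Asporin, which has an aspartate-rich start and competes with decorin for collagen, had the largest log2 difference of the 10 at a pseudocount of 1. At a pseudocount of 0.1 Fmod, at 3.06, and Omd, at 2.53, lay above Aspn, at 2.29. Aspn (ENSMUSG00000021388, chromosome 13, 49544443 to 49567565, plus strand) was at 11.97, 7.77, 7.70 and 11.4 FPKM in WT and at 83.9, 36.7, 38.6 and 40.8 FPKM in RBX2iCKO. The groups lay far apart, and replicate 1 was again the highest. Mean FPKM went from 9.70 ± 2.29 to 50.01 ± 22.7 (SD, n = 4 each), 5.15-fold (log2 difference 2.19, SE 0.26, limma adjusted p = 0.00126; scaled 1.95, adjusted p = 0.00194). Without RBX2iCKO replicate 1 the ratio was 3.99.

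The class II genes encode lumican, fibromodulin, PRELP and osteomodulin, most of which can carry keratan sulfate. Lumican regulates collagen fibril thickness and cornea clarity. Lum (ENSMUSG00000036446, chromosome 10, 97565128 to 97572703, plus strand) was at 63.8, 38.2, 41.1 and 50.6 FPKM in WT and at 149, 103, 51.6 and 111 FPKM in RBX2iCKO. It was the only member whose groups overlapped as deposited, because RBX2iCKO replicate 3 lay below WT replicate 1. It rose 2.14-fold (limma adjusted p = 0.0255), with a scaled log2 difference of 0.76 that did not pass (adjusted p = 0.0894). Without RBX2iCKO replicate 3 it passed on both scales (limma adjusted p = 0.00228 as deposited and 0.00458 scaled). Leaving out any of WT replicates 2 and 3 or RBX2iCKO replicates 1, 2 and 4 ended the deposited call, with limma adjusted p from 0.0571 to 0.0706.

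Fibromodulin, a collagen crosslinking modulator abundant in tendon, was low and uneven among the controls. Fmod (ENSMUSG00000041559, chromosome 1, 134037254 to 134048277, plus strand) was at 4.29, 0.349, 0.143 and 2.30 FPKM in WT, and at 16.3, 9.17, 6.16 and 5.80 FPKM in RBX2iCKO. The WT values rest on 248, 22, 9 and 162 fragments. The knockouts lay above all controls, but WT replicates 1 and 4 were several times WT replicates 2 and 3. The ratio of means was 5.28 (limma adjusted p = 0.0126; scaled adjusted p = 0.0257). It was 10.05 without WT replicate 1 and 3.97 without RBX2iCKO replicate 1. Comp and Chad, picked from the tendon and cartilage list after their values were seen, had the same order among the controls. Comp, a cartilage matrix gene, was at 7.24, 0.981, 0.554 and 3.47 FPKM in WT replicates 1 to 4. The small proteoglycan gene Chad was at 2.12, 0.354, 0.118 and 0.792 FPKM there. Sox9, of the same list, had another order, at 1.36, 0.539, 0.662 and 1.13 FPKM. The part of such genes in the Fmod result was not tested.

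PRELP anchors basement membranes to connective tissue. Prelp (ENSMUSG00000041577, chromosome 1, 133910304 to 133921414, minus strand) was at 18.9, 12.1, 9.18 and 15.9 FPKM in WT and at 41.6, 26.3, 20.9 and 22.3 FPKM in RBX2iCKO. The groups stood apart as deposited, and overlapped after scaling. It rose 1.98-fold (limma adjusted p = 0.019; scaled adjusted p = 0.0722). Leaving out WT replicate 2 gave a limma adjusted p of 0.0525.

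Osteomodulin, a mineral-binding proteoglycan of bone, was the least abundant in WT and had the largest ratio. Omd (ENSMUSG00000048368, chromosome 13, 49582462 to 49592822, plus strand) was at 1.15, 0.637, 0.480 and 0.513 FPKM in WT and at 6.71, 2.90, 3.86 and 4.32 FPKM in RBX2iCKO. These values rest on 15 to 33 fragments per WT library and on 104 to 196 per RBX2iCKO library. No knockout library came near the controls. The ratio of means was 6.42, and 5.33 without RBX2iCKO replicate 1 (log2 difference of log2(FPKM + 1) 1.66, SE 0.20, limma adjusted p = 0.00142; scaled 1.504, adjusted p = 0.00226). At this level the pseudocount makes the log2 value smaller than the ratio of means would give.

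Osteoglycin, or mimecan, is the class III member, and podocan is of class V. Ogn (ENSMUSG00000021390, chromosome 13, 49608046 to 49624501, plus strand) was the steadiest in WT, at 51.5, 46.8, 41.8 and 44.2 FPKM, and was at 127, 71.7, 58.7 and 82.2 FPKM in RBX2iCKO. It rose 1.84-fold as deposited (limma adjusted p = 0.0145), and scaled values overlapped and did not pass (log2 difference 0.56, adjusted p = 0.0808). Without RBX2iCKO replicate 1 the ratio was 1.54.

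Podocan, known to restrain smooth muscle growth in injured arteries, showed the smallest difference. Podn (ENSMUSG00000028600, chromosome 4, 108014791 to 108096445, minus strand) was at 8.53, 6.34, 8.22 and 6.45 FPKM in WT and at 9.31, 12.1, 9.85 and 11.8 FPKM in RBX2iCKO. RBX2iCKO replicate 1, the highest knockout for the other 9 genes, was the lowest for Podn. The rise was 1.46-fold (log2 difference 0.49, SE 0.12, limma adjusted p = 0.0136), and did not pass after scaling (0.26, SE 0.11, adjusted p = 0.133).

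Versican was the scarcest but for Fmod and Omd in WT. Vcan (ENSMUSG00000021614, chromosome 13, 89655312 to 89742509, minus strand) was at 2.20, 1.31, 1.48 and 2.29 FPKM in WT and at 5.47, 3.51, 3.50 and 2.81 FPKM in RBX2iCKO. All knockouts lay above all controls, on 329 to 641 fragments per WT library and 733 to 1276 per RBX2iCKO library. It rose 2.10-fold (log2 difference 0.76, SE 0.18, limma adjusted p = 0.0115; scaled 0.58, adjusted p = 0.0373). Gene-level values do not tell the splice forms of versican apart. Tested singly by a two-sided exact permutation test of mean FPKM over 70 assignments, Lum gave p = 0.0571 and each of the other 9 members gave p = 0.0286, the smallest possible and unadjusted.

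**Figure D2:**
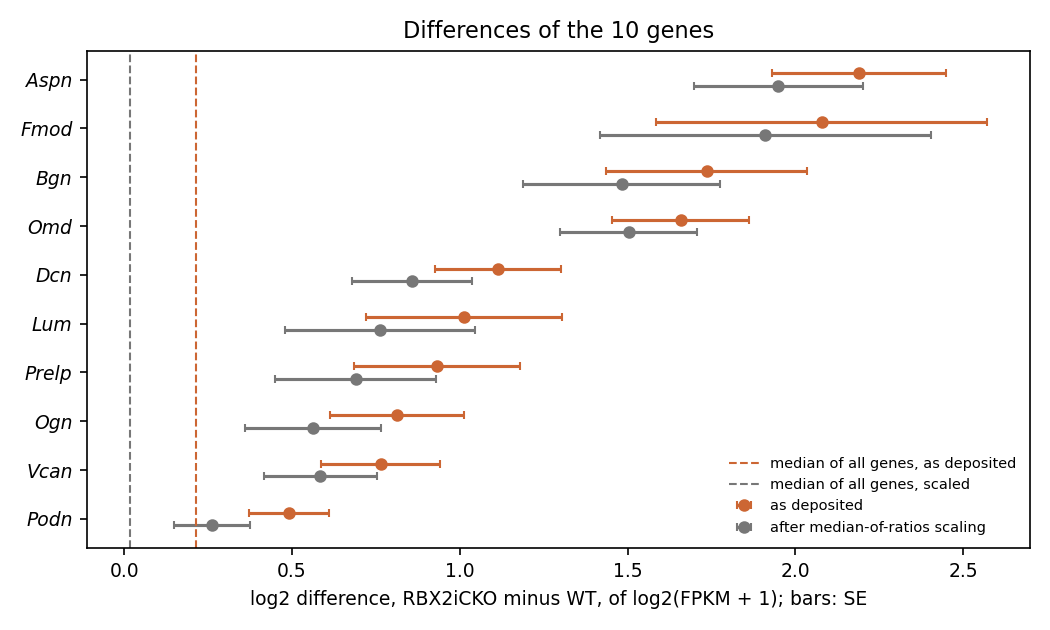
Log2 difference (RBX2iCKO minus WT, of log2(FPKM + 1)) of each gene with its SE, as deposited in orange and after median-of-ratios scaling in grey, and dashed lines at the medians of all tested genes, 0.21 and 0.02. Aspn, Fmod, Bgn and Omd lie between 1.66 and 2.19 as deposited, and Podn lies lowest, at 0.49.

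The highest library was shared by most members, and the lowest less so. In WT, replicate 1 was the highest library for 9 of the 10 genes and replicate 4 for Vcan, while replicates 2 and 3 were the lowest for 4 and 6 genes. In RBX2iCKO, replicate 1 was the highest for 9 genes and replicate 2 for Podn, while the lowest was replicate 3 for Dcn, Lum, Prelp and Ogn, replicate 4 for Bgn, Fmod and Vcan, replicate 2 for Aspn and Omd, and replicate 1 for Podn. The numbers in the sample titles fall into a lower and an upper run, whose meaning the labels do not give. The lower run holds WT replicates 1 and 2 with RBX2iCKO replicate 1, and there the ratio of knockout to mean control ran from 1.25 for Podn to 8.497 for Aspn. In the upper run it ran from 1.53 for Podn to 7.45 for Omd, so each gene was higher in the knockouts within both runs, with a single knockout in the lower one.

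The summed FPKM of the 10 genes averaged 474 (SD 94.3) over the controls and 1161 (SD 380) over the knockouts, n = 4 each, with no overlap. Dcn made up 54.5% ± 2.39 of that sum in WT and 49.4% ± 3.87 in RBX2iCKO, with overlapping libraries. The share of Aspn was 1.91% to 2.27% in WT and 3.54% to 4.89% in RBX2iCKO, and that of Omd 0.102% to 0.192% and 0.280% to 0.455%. Ogn and Podn went the other way, Ogn from 8.64% to 11.5% in WT to 6.90% to 7.88% in RBX2iCKO, and Podn from 1.28% to 2.09% in WT to 0.543% to 1.16% in RBX2iCKO. The groups of these 4 genes did not overlap. Relative to the same sum, 0.766% of tested genes lay higher and 65.1% lower without overlap, so most tested genes lay lower as Ogn and Podn did. The mean share in RBX2iCKO was 0.735 times that in WT for Ogn and 0.628 times for Podn. The median over tested genes was 0.517 times. Shares of the sum do not depend on how libraries are scaled. They do depend on the gene lengths behind the FPKM, and the longer length of Dcn taken up next would lower its share.

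By level per kilobase, the order in WT was Dcn, Bgn, Lum, Ogn, Prelp, Aspn, Podn, Vcan, Fmod and Omd. Ranges over the WT libraries left gaps between Dcn and Bgn, between Ogn and Prelp and between Podn and Vcan, while those of all other neighbours overlapped. Within each WT library, Bgn still lay above Lum and Prelp above Aspn. In RBX2iCKO Aspn passed Prelp, and Fmod and Omd passed Vcan, with ranges apart only for Bgn and Lum and for Prelp and Podn. Within each RBX2iCKO library, Dcn still lay above Bgn, Ogn above Aspn, Aspn above Prelp and Fmod above Omd. The order depends on the gene lengths behind the FPKM. The deposited values imply 943 bases for Dcn and 1333 for Bgn, against longest coding transcripts of 1758 and 2419 bases in GENCODE M21. With those longer lengths the WT means of Dcn and Bgn would be 138 and 47.7 FPKM. Dcn would still be first, and Ogn at 45.6 FPKM would stand above Lum at 41.0 FPKM. In RBX2iCKO Omd would be at 3.08 FPKM, below Vcan at 3.83 FPKM, so the place of Omd above Vcan rests on the length used.

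Of the 9 small leucine-rich proteoglycans among the members, 7 lie in 3 clusters on chromosomes 1, 10 and 13, beside other family genes within 1 Mb. On chromosome 13 of mm10, Ecm2, Aspn, Omd and Ogn follow one another on the plus strand, with gaps of 11.7, 14.9 and 15.2 kb. Ecm2, a class I relative, rose from 7.47 FPKM ± 1.44 to 17.6 FPKM ± 6.06 (SD, n = 4 each; limma adjusted p = 0.00861; scaled adjusted p = 0.0272). Neighbours did not change alike: the ratios of means were 2.36 for Ecm2, 5.15 for Aspn, 6.42 for Omd and 1.84 for Ogn. The ratio of Aspn to Ogn was 0.166 to 0.258 in WT and 0.497 to 0.659 in RBX2iCKO. The ratio of Omd to Ogn was 0.0115 to 0.0223 in WT and 0.0405 to 0.0659 in RBX2iCKO. Of 5 pairs within clusters compared by an exact permutation test of the log2 ratio, these 2 and Fmod to Prelp gave p = 0.0286, the smallest possible, unadjusted. Aspn to Omd gave an exact permutation p = 0.171. All 4 genes lie within the span of Cenpp on the minus strand, a kinetochore gene at 0.900 to 1.93 FPKM in WT and 1.97 to 3.42 FPKM in RBX2iCKO. Cenpp was not called (limma adjusted p = 0.0555), and its annotated exons share 7 bases with those of Aspn and 0 with those of Omd or Ogn. Exons of Prelp share 350 bases with the antisense gene Gm15851, which was at 0 in WT and at most 0.144 FPKM in RBX2iCKO, and without a stated strand setting such reads cannot be told apart.

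On chromosome 10, Dcn and Lum lie 47.0 kb apart. Dcn was 5.09 to 5.63 times Lum in WT. In RBX2iCKO replicates 1 to 4 it was 5.12, 5.05, 8.06 and 5.09 times Lum, so replicate 3 stood out. The log2 ratio gave an exact permutation p = 0.943, which with 4 libraries per group does not show that the ratio was unchanged. The next genes there are Kera, keratocan of the cornea, and Epyc, epiphycan of cartilage, which averaged 0.0762 and 0.589 FPKM in WT. Epyc was tested and not called (limma adjusted p = 0.949), and Kera was under the filter. On chromosome 1, Fmod lies 116 kb from Prelp, and Optc, opticin of the eye, lies 2.30 kb from Prelp and averaged 0.110 FPKM in WT. Fmod to Prelp was 0.0156 to 0.228 in WT and 0.260 to 0.393 in RBX2iCKO.

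**Figure D3:**
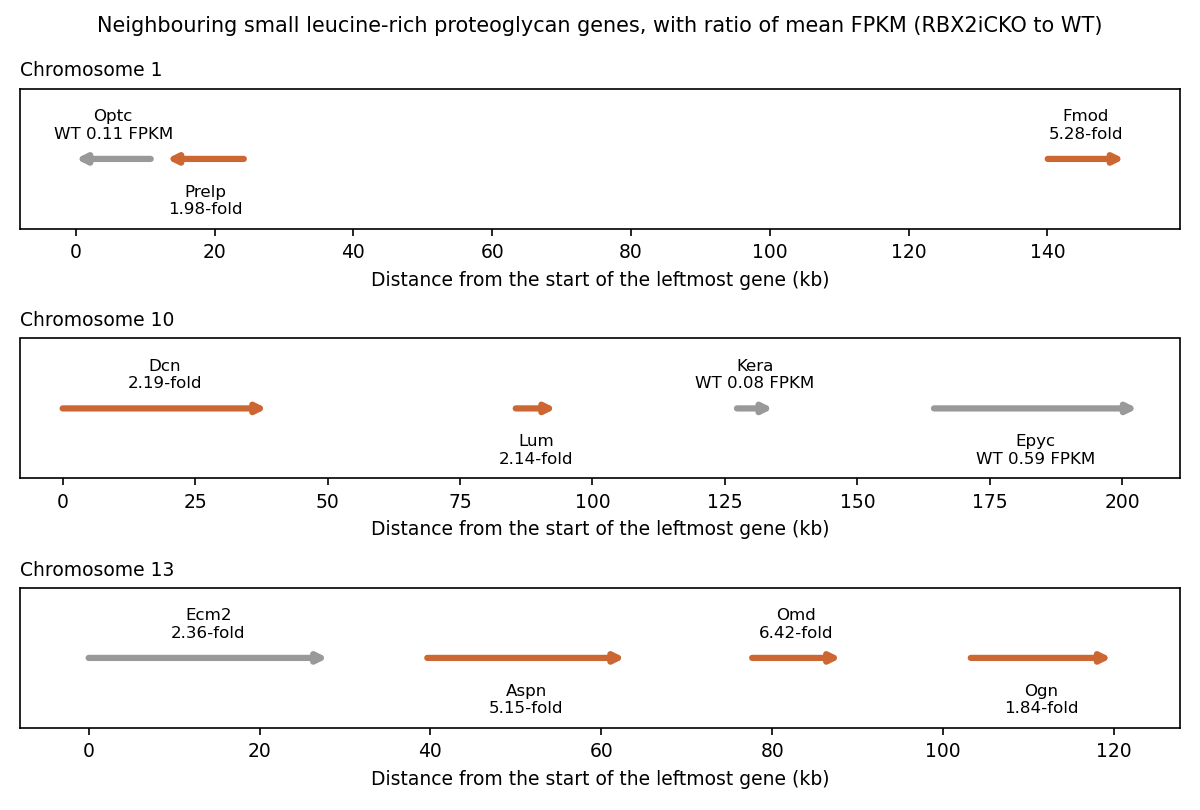
Arrows show the genes of the 3 clusters by distance (kb) from the start of the leftmost gene, pointing in the direction of transcription, with the 10 followed genes in orange and other family genes in grey. Labels give the ratio of mean FPKM of RBX2iCKO to WT, or the WT mean for family genes under 1 FPKM there: Aspn and Omd, at 5.15-fold and 6.42-fold, sit between Ecm2 and Ogn, at 2.36-fold and 1.84-fold.

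Promoter sequence is shown for the chromosome 13 neighbours, whose ratios differed, and for the chromosome 1 pair. RefSeq promoters (GRCm38.p6, the assembly of mm10) were matched by symbol for 8 of the 10 members, without Dcn and Lum. Each line gives the 250 bases before the RefSeq start, 5′ to 3′ on the strand of the gene, at chr13:49544193-49544442 (plus), chr13:49582212-49582461 (plus), chr13:49607765-49608014 (plus), chr1:134037004-134037253 (plus) and chr1:133921402-133921651 (minus). Capitals mark matches, on either strand, to the TATA box letters TATAAA, the AP-1 letters TGANTCA, the SMAD letters CAGAC and the TEAD letters GGAATG.
Aspn: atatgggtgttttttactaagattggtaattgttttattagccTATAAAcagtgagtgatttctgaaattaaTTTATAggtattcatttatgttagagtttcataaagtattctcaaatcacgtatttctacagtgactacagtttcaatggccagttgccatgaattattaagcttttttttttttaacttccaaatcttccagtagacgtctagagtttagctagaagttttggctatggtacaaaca
Omd: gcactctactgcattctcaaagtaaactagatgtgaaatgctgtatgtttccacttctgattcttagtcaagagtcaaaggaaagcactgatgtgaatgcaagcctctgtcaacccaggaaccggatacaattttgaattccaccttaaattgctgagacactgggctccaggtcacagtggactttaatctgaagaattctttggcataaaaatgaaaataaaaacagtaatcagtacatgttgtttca
Ogn: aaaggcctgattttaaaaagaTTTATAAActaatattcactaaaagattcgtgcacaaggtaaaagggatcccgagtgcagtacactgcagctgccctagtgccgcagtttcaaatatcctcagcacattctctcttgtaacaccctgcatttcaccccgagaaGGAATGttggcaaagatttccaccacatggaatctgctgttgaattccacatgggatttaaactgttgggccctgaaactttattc
Fmod: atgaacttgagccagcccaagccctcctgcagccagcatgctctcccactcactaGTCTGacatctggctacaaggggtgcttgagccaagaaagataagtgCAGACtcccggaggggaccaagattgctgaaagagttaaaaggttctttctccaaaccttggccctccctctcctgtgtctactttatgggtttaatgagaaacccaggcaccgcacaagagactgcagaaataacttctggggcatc
Prelp: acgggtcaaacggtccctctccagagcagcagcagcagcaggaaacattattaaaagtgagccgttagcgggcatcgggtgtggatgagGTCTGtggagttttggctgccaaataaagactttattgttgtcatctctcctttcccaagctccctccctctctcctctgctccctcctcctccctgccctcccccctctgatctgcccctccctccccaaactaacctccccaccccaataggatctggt

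Aspn and Ogn hold TATAAA or its reverse, each farther from the start than a TATA box usually lies: 178 bases and more before it in Aspn, at a pair of places, and 229 and 227 bases before it, overlapping, in Ogn. Such letters occur in 12.4% of 32851 promoter windows of the same length. Fmod holds the SMAD letters at 195 and 148 bases before its start and Prelp at 161, letters that 42.2% of all windows hold. Ogn alone holds GGAATG, 86 bases before its start, as do 12.6% of windows. The AP-1 letters, in 6.75% of windows, were in none of the members' windows, and the windows of Omd, Bgn, Podn and Vcan held none of the 4 motifs. These are matches of letters, not binding sites.

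The partners of these proteins rose in part, as counted over lists chosen by role with earlier results of these data known. Beside each list count below stand 33.5% of all tested genes called higher as deposited and 8.78% after scaling. All 8 collagen genes whose proteins bind small leucine-rich proteoglycans rose, with a median log2 difference of 2.03, and all 8 passed after scaling. Col3a1, of fibrillar collagen type III, went from 21.7 to 41.4 FPKM in WT to 160 to 335 FPKM in RBX2iCKO (limma adjusted p = 0.000497). Col5a2 and Col5a1, of the collagen that nucleates fibrils, rose 5.61-fold and 4.11-fold, and Col1a1 5.74-fold. Summed over the 8 genes, collagen averaged 119 FPKM (SD 27.8) in the controls and 616 FPKM (SD 186) in the knockouts, n = 4 each.

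Set against that sum, which rose 5.16-fold, 93.7% of the 13050 tested genes lay lower in every RBX2iCKO library than in any WT library and 0.0996% lay higher, with a median 4.13-fold lower ratio of means. The count of proteoglycans below is therefore no result about them, and their ratios are given as a description. Dcn per unit of collagen FPKM was 1.84 to 2.37 in WT and 0.752 to 1.36 in RBX2iCKO, 2.29-fold lower in the mean. Lum, Prelp, Ogn, Podn and Vcan were lower without overlap too, by 2.34-fold, 2.57-fold, 2.83-fold, 3.38-fold and 2.42-fold. Aspn per collagen was 0.0789 to 0.0839 in WT and 0.0574 to 0.0985 in RBX2iCKO, so its groups overlapped around nearly equal means of 0.0813 and 0.0809. Bgn, Fmod and Omd overlapped too. Such ratios are free of library scaling.

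Fibroblast markers moved with the proteoglycans. Of 12 fibroblast markers 10 rose and 0 fell (9 and 0 after scaling), beside 33.5% of all tested genes called higher (8.78% after scaling). The summed level of the markers was 708 to 1009 FPKM in WT and 1277 to 1749 FPKM in RBX2iCKO, with none at 0. Gsn, which was not called (limma adjusted p = 0.203), made up 650 of the mean WT sum of 827 FPKM, and Col1a1, Col1a2 and Col3a1 are also in the collagen list. Among the markers called, Pi16, a marker of adventitial fibroblasts, rose 3.40-fold, Htra3, a secreted protease, 2.49-fold and Mfap5, of microfibrils, 5.43-fold. Pdgfra, the receptor that defines fibroblasts, was at 6.34 to 7.92 FPKM in WT and at 10.7 to 18.1 FPKM in RBX2iCKO. In bulk ventricle, more fibroblasts and more RNA per fibroblast cannot be told apart. Relative to the summed 12 markers, Bgn, Aspn, Fmod and Omd were higher in RBX2iCKO without overlap, by 1.89-fold, 2.82-fold, 3.16-fold and 3.62-fold, and the other 6 proteoglycans overlapped. On that ratio 1.62% of tested genes lay higher and 45.9% lower without overlap. Relative to the geometric mean of the 9 markers that are not collagens, a measure added after the data were seen, Dcn was 14.4 to 16.8 in WT and 13.1 to 17.7 in RBX2iCKO. Lum, Prelp, Ogn, Vcan and Fmod overlapped on that measure as well. Bgn, Aspn and Omd were higher without overlap, by 1.57-fold, 2.34-fold and 2.97-fold, as were 1.01% of tested genes. Podn was 1.47-fold lower without overlap, as were 71.4% of tested genes, since the marker mean itself rose 2.17-fold.

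**Figure D4:**
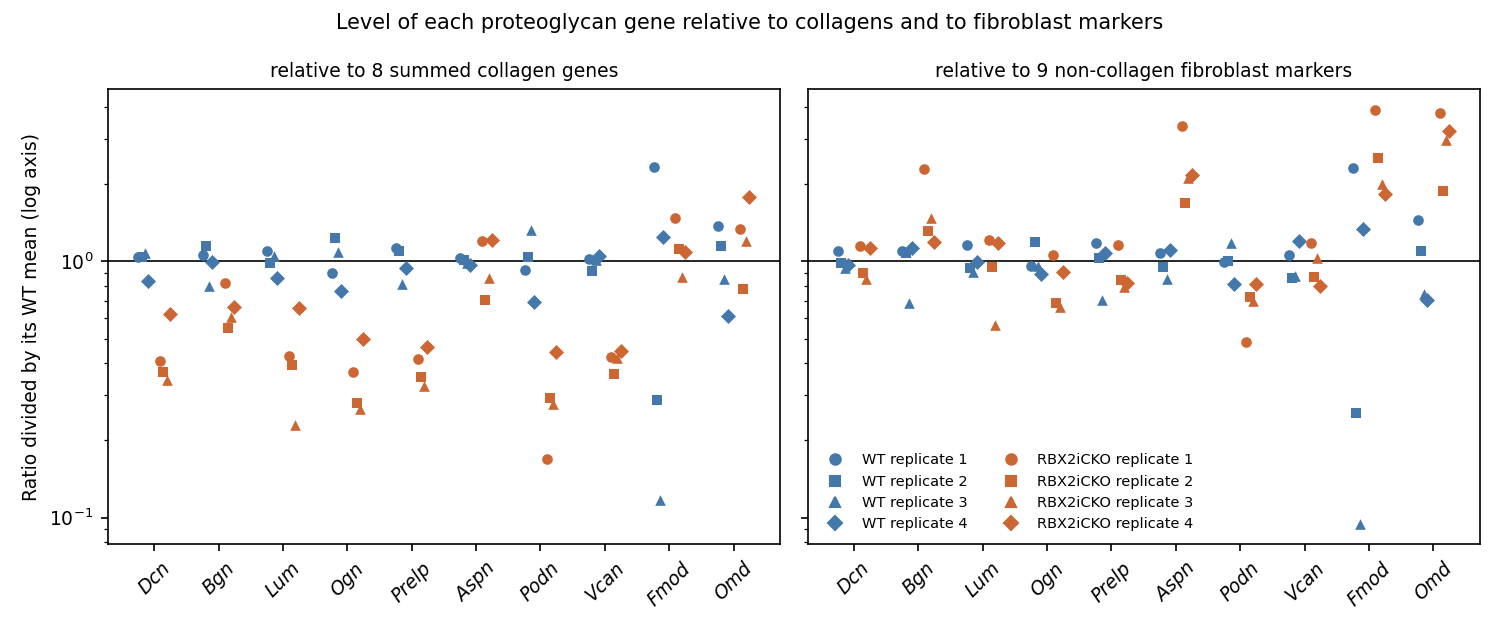
Each point is 1 library's FPKM ratio of a gene to the summed 8 collagen genes (left) or to the geometric mean of 9 non-collagen fibroblast markers (right), divided by the WT mean of that ratio, on a log axis. On the left Dcn, Lum, Ogn, Prelp, Podn and Vcan lie below the WT libraries in all RBX2iCKO libraries. Bgn also falls below 1 in all RBX2iCKO libraries there, but overlaps WT. On the right Bgn, Aspn and Omd lie above the WT libraries.

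Other cell types were measured by their own lists, beside 33.5% of all tested genes called higher (8.78% scaled). Of 9 markers of activated fibroblasts 6 rose and 0 fell (5 and 0 scaled), among them the matricellular gene Postn, 9.93-fold, Thbs4, 5.92-fold, and Cilp, 11.97-fold. Acta2, with means of 36.9 FPKM in WT and 38.3 FPKM in RBX2iCKO, was not called (limma adjusted p = 0.828). Fap was not called either (limma adjusted p = 0.0824). The collagen regulator gene Cthrc1 is counted among the 6 although it passed the filter only through the knockouts, at 0.0426 to 0.278 FPKM in WT and 1.07 to 4.81 FPKM in RBX2iCKO. The summed level of the 9 was 40.1 to 89.5 FPKM in WT and 163 to 373 FPKM in RBX2iCKO. Of 9 tendon and cartilage genes 4 were tested and 3 rose (1 scaled), namely the tendon factor gene Scx, 2.03-fold, Comp and Sox9. Their sum was 4.58 to 15.3 FPKM in WT and 13.3 to 38.0 FPKM in RBX2iCKO, with Matn1 at 0 throughout. Of 7 epicardial markers 5 were tested and only Krt8, a keratin, was called (0 scaled). Krt8 passed the filter only through the knockouts, with means of 0.309 and 0.932 FPKM. The list had sums of 2.98 to 9.32 and 3.44 to 12.1 FPKM.

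For the next lists, the shares of all tested genes were 33.5% higher and 3.52% lower (8.78% and 10.9% scaled). Of 9 endothelial markers 5 rose (0 scaled), including the receptor genes Tie1, 1.41-fold, and Tek, 1.37-fold, with sums of 168 to 224 and 215 to 272 FPKM. Of 8 mural cell markers Pdgfrb and Cspg4 rose and Abcc9 fell (1 and 1 scaled), with sums of 242 to 307 and 211 to 328 FPKM. Of 9 macrophage markers 4 rose (2 scaled), including Fcgr1, 2.82-fold, and Ms4a7, 2.71-fold, with sums of 119 to 174 and 122 to 289 FPKM. Of 10 ventricular cardiomyocyte markers Atp2a2, Tnni3 and Pln fell and Actc1 rose (4 fell and 0 rose after scaling), with sums of 43071 to 44794 and 37909 to 44895 FPKM. None of the endothelial, mural, macrophage or cardiomyocyte markers was at 0, and the part of these cell types in the proteoglycan result was not tested.

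Atrial markers varied between libraries within both groups. Of 6 atrial markers Nppa and Nr2f2 rose (1 scaled), beside 33.5% of all tested genes (8.78% scaled), and Nppa is also a stress gene of ventricles. Myl7, the atrial light chain, was at 237, 52.7, 0.422 and 10.6 FPKM in WT and at 5.24, 361, 1.32 and 94.8 FPKM in RBX2iCKO. RBX2iCKO replicate 1, with the highest Dcn, Bgn and Fmod, had Myl7 at 5.24 FPKM. WT replicate 1, with the highest WT level of 9 proteoglycans, had Myl7 at 237 FPKM. The part of atrial tissue in the proteoglycan levels was not tested. The sum of the list was 6.66 to 377 FPKM in WT and 398 to 1068 FPKM in RBX2iCKO, and Bmp10 was at 0 in the 4 WT libraries and in RBX2iCKO replicate 1.

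Genes of sugar chain synthesis were counted next, again beside 33.5% of all tested genes called higher (8.78% scaled). Of 22 genes of chondroitin and dermatan sulfate synthesis 18 were tested, 9 rose and 0 fell (5 and 0 scaled), with a median log2 difference of 0.35 beside 0.21 over all genes. Xylt2, which starts the chain on the core protein, rose from 3.42 FPKM ± 0.271 to 5.69 FPKM ± 0.624 (SD, n = 4 each; limma adjusted p = 0.00252; scaled adjusted p = 0.0159). Dse, the epimerase that turns chondroitin into dermatan sulfate, was at 1.84 to 2.57 FPKM in WT and 3.43 to 5.04 FPKM in RBX2iCKO. The chain-lengthening Chpf and the sulfotransferase gene Chst12 rose 1.94-fold and 1.84-fold. Of 6 keratan sulfate genes 3 were tested and rose as deposited, Chst1, B4galt1 and B4galt4, by 1.71-fold, 1.24-fold and 1.40-fold, and 0 passed after scaling.

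Of 12 genes that process the core proteins 8 were tested, 6 rose and 0 fell (4 and 0 scaled), while Adamts1 and Adamts8 did not pass. The share of all tested genes called higher was 33.5% (8.78% scaled). Bmp1, the protease that removes the propeptides of biglycan, osteoglycin and fibrillar procollagens, rose from 8.89 FPKM ± 1.19 to 19.5 FPKM ± 1.88 (SD, n = 4 each; limma adjusted p = 0.000771; scaled adjusted p = 0.000874). Its enhancers Pcolce and Pcolce2 rose 2.30-fold and 1.91-fold. Adamts5, a protease that cleaves versican and aggrecan, rose 1.55-fold, with all knockout libraries between 4.50 and 5.26 FPKM and all controls between 2.78 and 3.45 FPKM. Tll2, a relative of Bmp1 singled out after its values were seen, was under the filter, at 0.310 to 0.456 FPKM in WT, listed at 0 in RBX2iCKO replicate 3 and at 0.0129 to 0.0316 FPKM in the other knockouts.

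Transcripts of versican's relatives and of link proteins were scarce. All 7 genes of other hyalectans and link proteins, such as Acan and Hapln1, were under the filter, with a summed level of at most 0.687 FPKM in any library. Of 11 hyaluronan genes 7 were tested, 5 rose and 0 fell (2 and 0 scaled), beside 33.5% of all tested genes called higher (8.78% scaled). Cd44, the cell surface hyaluronan receptor, rose 1.92-fold. Hmmr, a hyaluronan-binding protein that also serves at the mitotic spindle, rose from 0.128 to 0.153 FPKM in WT to 0.799 to 3.64 FPKM in RBX2iCKO, having passed the filter through the knockouts. The hyaluronidase genes Hyal2 and Cemip2 rose 1.22-fold and 1.59-fold, and neither passed after scaling.

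**Figure D5:**
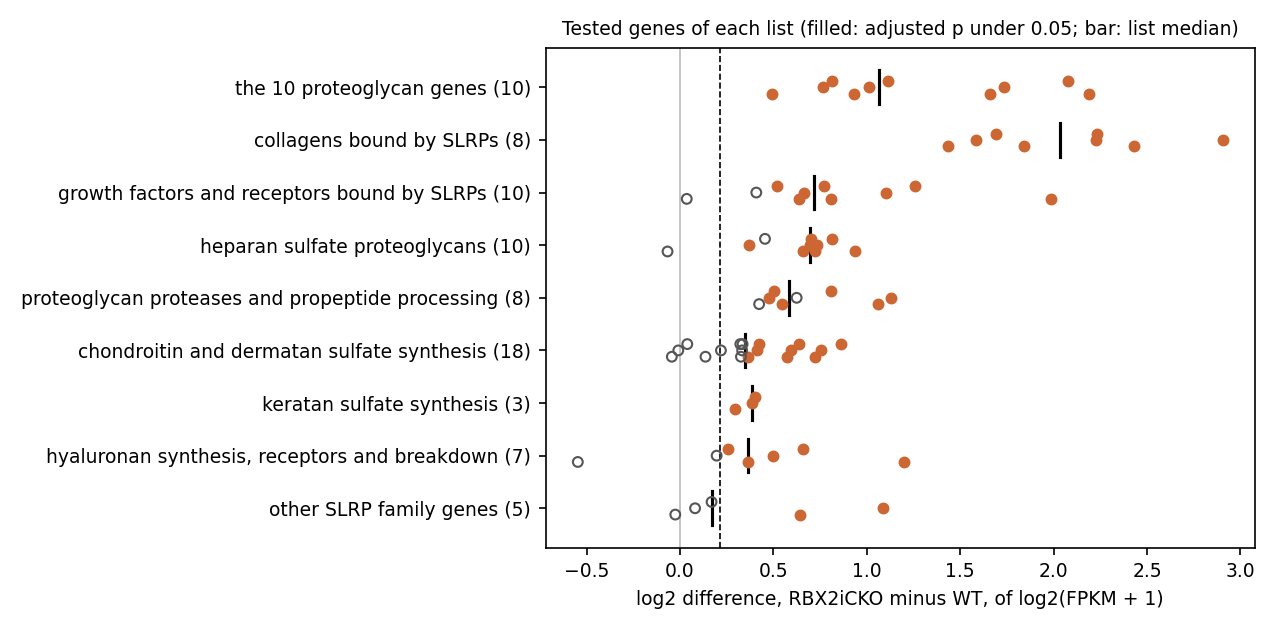
Log2 difference (RBX2iCKO minus WT, of log2(FPKM + 1)) of each tested gene, 1 row per list with the number tested in brackets; filled points passed (limma adjusted p under 0.05, as deposited), black bars are list medians and the dashed line is the median of all genes, 0.21. The 8 collagens have a median of 2.03, the 10 proteoglycans 1.06 and the 18 tested chondroitin and dermatan sulfate genes 0.35.

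Growth factors and receptors that decorin or biglycan bind were counted too, beside 33.5% of all tested genes called higher (8.78% scaled). Of 11 genes 10 were tested, 8 rose and 0 fell (6 and 0 scaled), with a median log2 difference of 0.72. Ccn2, connective tissue growth factor, rose 4.32-fold, Lrp1, an endocytic receptor for decorin, 2.25-fold, Tgfb2, a TGF-beta ligand, 1.99-fold, and Tlr2, a biglycan receptor, 2.21-fold. Of 12 heparan sulfate proteoglycans 10 were tested, 8 rose and 0 fell (4 and 0 scaled). The syndecan genes Sdc3 and Sdc4, cell surface coreceptors, rose 1.66-fold and 1.73-fold, the glypican gene Gpc6 2.24-fold, and Hspg2, perlecan of basement membranes, 1.59-fold. Among the 9 other small leucine-rich proteoglycans 5 were tested and 2 rose on both scales, Ecm2 and Tsku. Tsku, tsukushi, a secreted inhibitor of TGF-beta and Wnt signals, went from 1.05 FPKM ± 0.0949 to 2.22 FPKM ± 0.401 (SD, n = 4 each; limma adjusted p = 0.00334).

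Profiles nearest to each member were found as the smallest root mean square difference of log2(FPKM + 1), relative to the WT mean, over the 8 libraries. Among other protein-coding genes with a mean of at least 1 FPKM over all libraries, the nearest to Dcn was Itih2 (0.05), to Bgn Serpinf1 (0.19), to Aspn Itgbl1 (0.18) and to Fmod Thbs4 (0.28). The nearest to Lum was Cpxm1 (0.12), to Prelp Tmem176a (0.11), to Omd Svep1 (0.22), to Ogn Naalad2 (0.10), to Podn Klhdc8b (0.04) and to Vcan Fxyd5 (0.11). Thbs4 was at 4.78, 1.47, 1.03 and 3.44 FPKM in WT, in the same order of libraries as Fmod. It was picked for its nearness to Fmod over these same libraries, so the choice itself favours a shared order. On this scale the pseudocount shrinks changes of low genes, so a near profile need not have a like ratio: Itih2 went from a mean of 0.464 to 2.08 FPKM, 4.49-fold, against 2.19-fold for Dcn.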

How the data were processed

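Ventricular RNA of 4 WT and 4 RBX2iCKO libraries was analysed. The authors deposited 1 table of FPKM values for 35275 genes, with 1 column per library. Reads were placed on mm10, per the submitters' processing notes; aligner, counter, annotation and strandedness: not given in the sources used here. Symbols and positions come from GENCODE M21 on that build, which holds 34490 of the identifiers. Fragment totals and counts were read back from FPKM, since low values are whole multiples of 1 fragment. With a tolerance of 0.01, the shortest whole length that made a gene whole in all libraries was found for 13049 of 13050 tested genes. A length that divides the true one would understate the fragments.

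Groups follow the genotype label. Genes with a mean of at least 0.5 FPKM were tested on log2(FPKM + 1) with limma 3.58.1 in R 4.3.3 (trend, two-sided, Benjamini-Hochberg over all tested genes, threshold 0.05), without covariates. The test was checked on simulated data. Single values were tested by exact permutation of the group labels (70 assignments, two-sided). Python 3.11.15, numpy 2.4.6, scipy 1.17.1, pandas 2.3.3 and matplotlib 3.10.9 were used. Named genes were taken from the members, the 4 smallest p-values of each list, genes called against their list, the nearest profiles and cluster neighbours. Pdgfra, Myl2, Myh6, Esr1, Myl7, Acta2, Fap, Cenpp and Gm15851 were added outside this rule, with values known. Members and lists were chosen with earlier results of these data known. Protein features were not computed here. Alternatives covered the pseudocount, filter, scaling, mitochondrial genes, title numbers, variance trend, limma voom on recovered fragments and leaving out each library. Scaled fits with a library left out, the marker mean without collagens and other gene lengths were added after the data were seen.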

Additional observations from a re-analysis of the deposited data

Results flagged for a closer look

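A library was set against the other 3 of its group for 46 sets of values, and 2 stood apart, where chance gives about 2.3 (1 in 20 sets). RBX2iCKO replicate 1 had an Aspn level of 83.9 FPKM against 36.7 to 40.8 FPKM in the other knockouts. The same library had a Podn share of 0.543% of the summed proteoglycan FPKM, against 1.13% to 1.16%.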

How the results depend on the processing

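Dcn, Bgn, Aspn and Omd kept their direction and their call under all 25 alternatives, scaled fits with a library left out included, and no member changed direction under any of them. Median-of-ratios scaling left 6 of 10 members called higher, and 4 to 9 with a library left out as well. With a library left out of the deposited values, 8 to 10 members were called. Under median-of-ratios scaling the difference of mean FPKM was 10.1 for Prelp (exact permutation p = 0.0571), 27.4 for Ogn (exact permutation p = 0.0857) and 1.79 for Podn (exact permutation p = 0.143). For Lum it was 42.1 scaled (exact permutation p = 0.0857) and 55.1 as deposited (exact permutation p = 0.0571). Fmod and Vcan lost the scaled call without WT replicate 2 or 3 or RBX2iCKO replicate 1 or 2 (limma adjusted p from 0.0581 to 0.0750 and from 0.0655 to 0.101). Lum was lost without the filter on low values and without mitochondrial-encoded genes (limma adjusted p = 0.0555 and 0.0624). Scaling changed the number of genes called from 4374 higher and 459 lower to 1146 and 1419, and removal of mitochondrial-encoded genes to 2022 and 713. With any library left out, 2895 to 4386 genes were higher and 327 to 452 lower, with 2895 without WT replicate 2. The pseudocount, the title-number covariate, eBayes without trend and limma voom on recovered fragments each kept 10 members called. The cause of these changes was not tested. No paired analysis was possible because the labels give the groups no shared replicate numbers. Counting limits Fmod and Omd, with as few as 9 and 15 fragments in a WT library.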
